A study of Mus musculus with 8 samples.

Results

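The probes described here are aimed at mouse cDNAs and expressed sequence tags that carry a database accession and no gene name. They were measured in skeletal muscle of newborn and adult mice. They were chosen by their names in the scanner files: non-control probes outside the lincRNA and ultraconserved-region designs, with an identifier that is neither a RefSeq nor an Ensembl transcript. The rule used no measured value and found 1341 probes among 59709 non-control probes on the array. The tissue, from the outbred ICR stock, was taken at postnatal day 0 (D0, newborn) and postnatal day 65 (D65, young adult), with 4 samples per age. The labels name no genetic change or treatment at either age, and they give the aim as a search for long noncoding RNAs that differ over postnatal muscle development. RNA depleted of ribosomal RNA was copied with random primers into Cy3-labelled cRNA, and each sample was hybridised to 1 single-colour Agilent array. The labels do not say whether these samples are separate animals. The p-values therefore measure only the spread among the samples given, which may be technical.

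An expressed sequence tag is a single sequencing pass from the end of a cloned cDNA, so it marks a stretch of RNA that some tissue once contained, without showing the whole transcript. A full-length cDNA record, by contrast, aims to cover a transcript from its start to its poly(A) tail. Records of both kinds that match no annotated protein-coding gene are among the usual sources of long noncoding RNA candidates, and they also include unspliced precursor RNA, alternative ends of known genes and copies of repeats. After birth, mouse muscle stops forming new fibres, exchanges embryonic and neonatal myosins for adult ones and builds up its mitochondria, and many coding and noncoding RNAs change level over that time.

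By the first letters of the identifier, 161 of the 1341 probes (12.0%) had an AK accession, the series that holds mostly full-length mouse cDNA clones. A further 51 (3.80%) had a UCSC gene-track identifier, from uc007 to uc009. The remaining 1129 (84.2%) had other accessions. Of these, 695 had prefixes of expressed tags submitted through GenBank and 346 had prefixes of tags submitted through DDBJ, the Japanese database. Another 19 had BC accessions, which belong to a collection of fully sequenced cDNA clones, and 69 had prefixes left ungrouped. There were 52 prefixes in all, 23 of them with at least 20 probes. Each of the 1341 identifiers had 1 probe, so no transcript was measured by a second probe of the same accession. None of the 1341 identifiers matched a symbol, synonym or transcript of the RefSeq gene table used here, so the probes are named by identifier, and their sequences and genome positions were not used.

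Of the 25 marker genes listed for muscle fibres, fibroblasts, endothelium, blood, fat and nerve, 0 had a probe named for them, so the labelled tissue was not checked against its markers and no marker list stands beside the results. Since whole tissue was measured, fewer cells of a type and less RNA per cell cannot be told apart. All 8 arrays lay on 1 slide, with D0 in the first row and D65 in the second, so the effects of row and age cannot be told apart. Among the newborn arrays, replicate 4 was unlike the rest. The 75th percentile of its signal, the brightness against which every level below is scaled, was 136 intensity units, within the D65 range of 121 to 151, while the remaining newborn arrays had 256 to 309. The total counts of called probes are given with and without this array, and those of the main classes as ranges over leaving out each array. Most other counts below include it and were not repeated without it.

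More of the cDNA and tag probes were detected in newborn than in adult muscle. A probe counted as detected on an array when the scanner software called its spot well above background. At D0, 54.9%, 53.2%, 56.3% and 55.5% of the 1341 probes were detected on replicates 1 to 4. The D65 arrays detected 43.4%, 44.5%, 50.1% and 49.0%. The ages did not overlap, and D0 replicate 4, though dim, lay among the other D0 arrays. Over all 59709 probes the share was 67.1% to 68.4% on D0 replicates 1 to 3 and 63.1% on D0 replicate 4. It was 52.3% to 60.8% at D65, also without overlap. On every array, then, the cDNA and tag probes were detected less often than the probes of the array as a whole.

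The AK cDNAs were detected at 65.2% to 69.4% at D0 and 51.6% to 59.0% at D65, which is close to the whole array. The UCSC identifiers stood at 66.7% to 80.4% at D0 and 52.9% to 64.7% at D65. The other accessions were the least detected, at 50.8% to 53.4% at D0 and 41.8% to 48.4% at D65. In each of these classes every D0 array lay above every D65 array. No test was run on these shares, because the probes of an array share its brightness and background.

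**Figure D1:**
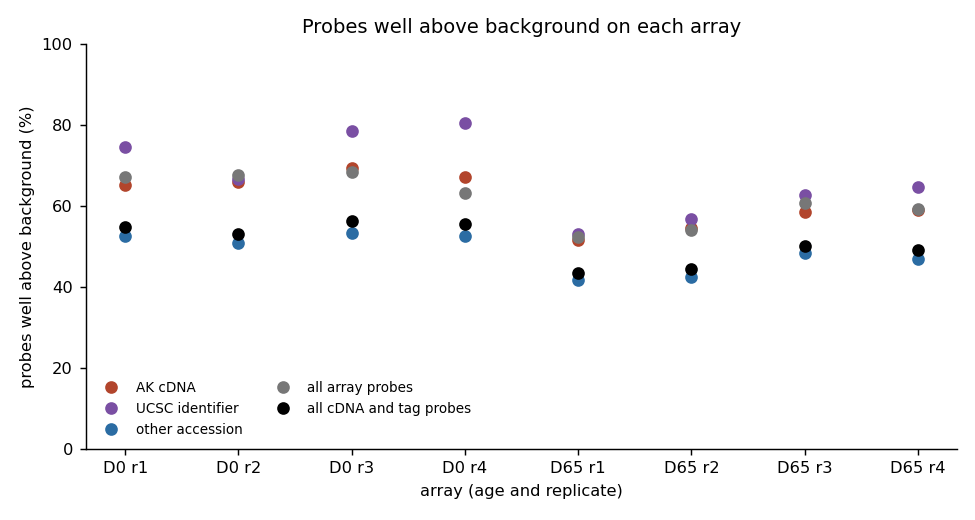
Share of probes well above background (y axis, percent) on each of the 8 arrays (x axis, age and replicate), for AK cDNAs, UCSC identifiers, other accessions, all cDNA and tag probes and all array probes. In each class the 4 D0 points lie above the 4 D65 points, and the other accessions lie lowest, at 41.8% to 53.4%.

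Detection over both ages gave the same order of classes. All 8 arrays detected 508 of the 1341 probes (37.9%), and none detected 443 (33.0%). Over the whole array these shares were 47.1% and 23.0%. Only 3 of the 51 UCSC identifiers (5.88%) were detected on no array, against 37 of 161 AK cDNAs (23.0%) and 403 of 1129 other accessions (35.7%). The authors' deposited table of normalized intensities lists 14529 probes, and its 508 cDNA and tag probes were exactly those well above background on all 8 arrays.

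For the comparison of ages a probe had to be well above background on each array of D0, of D65 or of both. This left 642 of the 1341 probes (47.9%), against 34948 of 59709 on the whole array (58.5%). The kept share was 60.2% for AK cDNAs (97 of 161), 62.7% for UCSC identifiers (32 of 51) and 45.4% for other accessions (513 of 1129). Among the tags, 171 of 346 from DDBJ (49.4%) and 295 of 695 from GenBank (42.4%) were kept, and among the BC cDNAs 15 of 19 (78.9%). The lowest kept shares among prefixes with at least 20 probes were 19.0% for CN, 30.0% for AU and 37.1% for BU, and the highest was 62.7% for AV, tied with the UCSC identifiers. Of the 642 kept probes, 107 passed through D0 alone and 27 through D65 alone, so the filter let in more probes through the newborn arrays than through the adult ones.

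Levels are given as log2 of the processed signal minus the array's 75th percentile. Levels of single probes are not compared with each other, since probes differ in how well they bind. The median level of the kept cDNA and tag probes was −1.11, −1.13 and −1.11 on D0 replicates 1 to 3 and −0.67 on D0 replicate 4. At D65 it was −0.69, −0.89, −0.80 and −0.85. D0 replicates 1 to 3 lay together below all D65 arrays, and D0 replicate 4 lay just above the highest of them. Over all kept probes, too, D0 replicates 1 to 3 lay below all D65 arrays and D0 replicate 4 above them, within a narrower range. Those medians were −0.57 to −0.53 on D0 replicates 1 to 3, −0.51 to −0.49 at D65 and −0.48 on D0 replicate 4. The part that the brightness of the arrays plays in these medians was not tested.

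Averaged over the arrays, the median level was −0.29 for the AK cDNAs, −0.65 for the UCSC identifiers and −1.12 for the other accessions. The other accessions were mixed, with medians of 1.59 for the 15 kept BC cDNAs and 1.87 for the 32 kept AV tags. On D0 replicate 3 the UCSC median lay above the AK median. On single arrays the AK medians were −0.27, −0.39, −0.22 and 0.31 at D0 and −0.29, −0.44, −0.60 and −0.57 at D65. The UCSC identifiers had medians of −0.37, −0.58, 0.17 and −0.10 at D0 and, at D65, −0.63, −0.94, −0.64 and −0.89. The ages overlapped for the AK cDNAs. For the UCSC identifiers every D0 array lay above every D65 array, with a narrow gap between −0.58 and −0.63. The other accessions were the dimmest class, at −1.30, −1.41, −1.32 and −0.95 at D0 and −0.82, −1.04, −0.91 and −0.98 at D65. For them D0 replicate 4 lay within the D65 values, and the other D0 arrays lay below all of them.

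**Figure D2:**
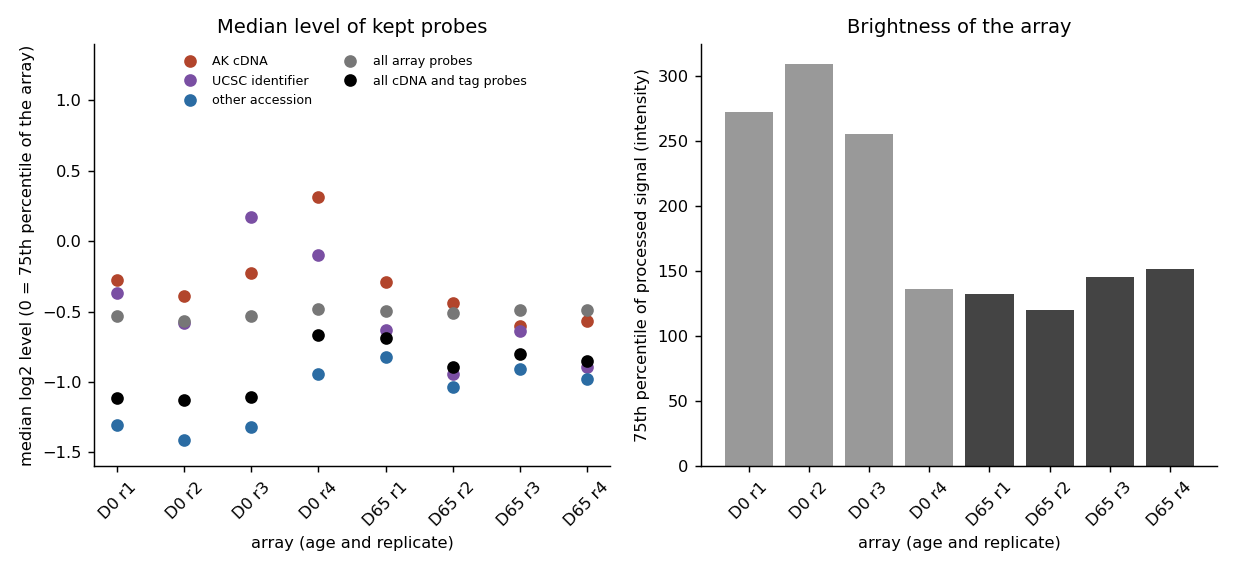
Left, median log2 level of kept probes (y axis, 0 = 75th percentile of the array) on each array by kind of probe. Right, the 75th percentile of processed signal (y axis, intensity), which runs from 256 to 309 on D0 replicates 1 to 3 and from 121 to 151 on D0 replicate 4 and the D65 arrays.

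A probe was called changed at a limma p-value below 0.05 after Benjamini-Hochberg adjustment over the 34948 kept probes, with a log2 difference (D65 minus D0) of at least 1 either way. Of the 642 kept cDNA and tag probes, 50 (7.79%) were higher at D65, against 9.57% of all kept probes. Another 59 (9.19%) were lower at D65, against 12.6% of all kept probes. Together 109 (17.0%) were called, against 22.1% over the array, a smaller share in both directions than on the array as a whole. Of the rises 7 and of the falls 15 were not well above background on all 8 arrays. With the fit limited to probes that were, 8.66% of 508 were higher and 8.86% lower. All such probes had 10.4% and 10.1%, so the gap in the lower direction was narrower. The deposited values cover the same 508 cDNA and tag probes but only 14529 probes of the whole array. On them 8.46% of the cDNA and tag probes were lower, against 7.57% of all probes listed. The order turned there, but the array probes compared differ as well as the values. With no minimum difference, 85 of the 642 were higher and 74 lower, beside 30.5% of all kept probes in either direction. The ages did not overlap for 175 of the 642 probes (27.3%), against 31.5% of all kept probes. Of these, 93 were higher and 82 lower at D65, beside 15.1% and 16.4% of all kept probes. The median difference was 0.12 with quartiles of −0.33 and 0.55, beside 0.06 for all kept probes.

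Calls in the 2 directions were uneven within the classes. Of the 97 kept AK cDNAs, 6 (6.19%) were higher and 21 (21.6%) lower in adult muscle, beside 9.57% and 12.6% over the array. Their median difference was −0.14, and 45 of the 97 differences were above 0. The UCSC identifiers went the same way, with 1 higher and 8 lower of 32 kept and a median of −0.40. Among the 513 other accessions, 43 (8.38%) were higher and 30 (5.85%) lower, with a median of 0.18. The share called lower was thus above that of the array for the AK cDNAs and UCSC identifiers, and below it for the other accessions. For the UCSC identifiers this turned under normexp with quantile normalization, with 6.25% lower against 6.65% of all probes. Whether these shares differ between the classes was not tested. The count of AK cDNAs that fell was 17 to 21 under every alternative that kept these 97 probes and the call rule. Of the 75 AK cDNAs well above background on all 8 arrays, 5 rose and 15 fell, beside 10.3% and 9.96% of all such probes. The sign of the AK median was less steady: it was 0.01 without D0 replicate 4 and 0.09 over those 75 probes.

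Among the tags, the GenBank accessions had 26 higher (8.81%) and 13 lower (4.41%) of 295 kept, beside 9.57% and 12.6% of all kept probes. The share higher was near that of the array and the share lower was smaller. The DDBJ tags had 11 higher and 11 lower of 171, or 6.43% each way. The 15 kept BC cDNAs held 4 higher and 2 lower. By prefix, the AV tags had 2 higher and 6 lower of 32 kept with a median difference of −0.39, while the BY tags, more numerous at 65 kept, had 2 of each with a median of 0.32. Of the prefixes with at least 20 probes on the array, CK, CF, CR, BG, AW, CN, AU and BQ had no probe called lower, out of 22, 25, 19, 17, 14, 4, 6 and 10 kept. These numbers are small against an array share of 12.6%, and no prefix was tested against the array.

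**Figure D3:**
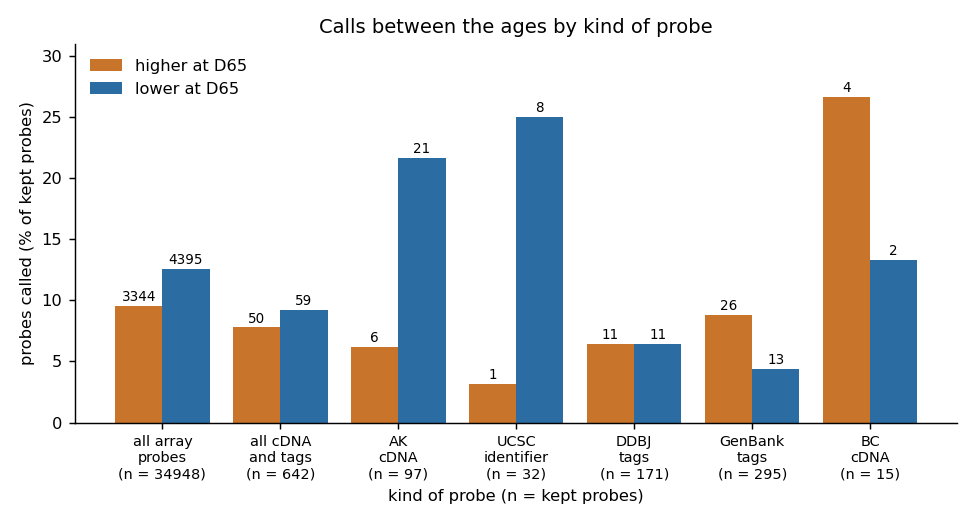
Share of kept probes called higher (orange) or lower (blue) at D65 (y axis, percent of kept probes) for each kind of probe (x axis, n = kept probes), with the number called above each bar. For AK cDNAs 21 of 97 and for UCSC identifiers 8 of 32 were lower, beside 12.6% of all array probes.

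Called probes were found at all levels of brightness. The kept probes of the whole array were divided at their quartiles of mean level, −1.94, −0.55 and 1.67. From the dimmest to the brightest group, 185, 176, 146 and 135 cDNA and tag probes fell in, so the class leaned to the dim side. Of these, 7, 21, 12 and 10 were higher at D65 and 12, 15, 14 and 18 were lower. In the second group, 11.9% of the cDNA and tag probes were higher, against 8.72% of all probes there, and their median difference was 0.33 against 0.17. In the brightest group 7.41% were higher, against 12.0% of all probes. The AK cDNAs had 4, 3, 9 and 5 lower and 1, 1, 2 and 2 higher. Over the whole array 14.0%, 9.64%, 11.4% and 15.3% were lower and 6.86%, 8.72%, 10.7% and 12.0% higher, so lower calls outnumbered higher ones in each group there too. The other accessions had 8, 8, 4 and 10 lower and 6, 20, 10 and 7 higher.

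**Figure D4:**
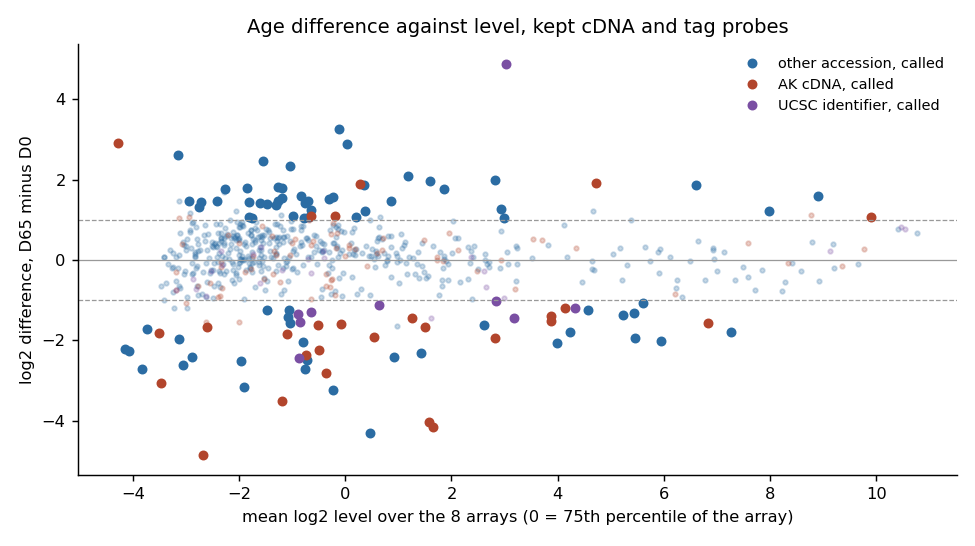
Log2 difference between the ages (y axis, D65 minus D0) against mean log2 level over the 8 arrays (x axis, 0 = 75th percentile of the array) for the 642 kept cDNA and tag probes, with large points for called probes and dashed lines at the minimum difference of 1. Higher calls of other accessions cluster at levels near −1, where the second group of levels holds 20 of their 43, and called AK cDNAs lie mostly below the lower line.

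Higher in adult muscle, the largest change belonged to uc008sno.1, a UCSC identifier. Its level was −0.67, −1.23, 2.04 and 2.19 on the D0 arrays and 6.18, 5.53, 5.36 and 4.83 on the D65 arrays. The D0 values fell into a low and a high pair, and every D65 value lay well above both. The difference was 4.89 (SE 0.74), or 29.7-fold, with a limma adjusted p of 0.000926. It was the largest rise among the 642 kept probes and the only UCSC identifier called higher.

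The tags BG794789_P1 and CF578288_P1 came next, with tight groups. BG794789_P1 stood at −2.14, −1.93, −1.73 and −1.18 at D0 and at 1.38, 1.49, 1.64 and 1.52 at D65. It rose 9.54-fold, a log2 difference of 3.25 (SE 0.24, limma adjusted p 1.12e-05). CF578288_P1 stood at −1.63, −1.50, −1.56 and −0.95 at D0 and at 1.74, 1.55, 1.07 and 1.51 at D65. Its rise was 7.36-fold, a difference of 2.88 (SE 0.24, limma adjusted p 2.34e-05). In both, D0 replicate 4 was the D0 array nearest to the adult values and still well below the lowest of them.

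BI555236_P1 and BE650623_P1 were dim tags that rose about equally. BI555236_P1 went from −3.10, −3.28, −2.40 and −2.31 to 0.60, −0.78, −1.05 and 0.00, a difference of 2.47 (SE 0.39, limma adjusted p 0.00113). BE650623_P1 went from −2.52, −2.50, −2.19 and −1.62 to 0.30, −0.20, 0.47 and −0.06, a difference of 2.34 (SE 0.27, limma adjusted p 0.000161). The groups did not overlap in either, but the sizes depended on the background correction, and across the alternatives the differences ran from 1.17 to 2.71 and from 1.35 to 2.53.

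The remaining rises named by size lay between 1.89 and 2.10. AA896286_P1 rose by 2.10 (SE 0.23), from a D0 range of −0.13 to 0.51 to a D65 range of 1.85 to 2.44. CA322642_P1 rose by 1.98 (SE 0.33), from 1.21 to 2.49 up to 3.45 to 4.17. The BC cDNA BC128340_P1 stood at 0.38, 0.50, 0.62 and 0.90 at D0 and at 2.76, 2.69, 2.42 and 2.46 at D65, a rise of 1.98 (SE 0.20, limma adjusted p 8.58e-05). These 3 kept a wide gap between the ages, and BC128340_P1 had the smallest standard error among the rises named.

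Of the AK cDNAs that rose, AK201409_P1 was bright in both ages, with levels of 3.98, 3.91, 4.37 and 2.82 at D0 and 5.18, 5.74, 5.97 and 5.88 at D65. Its rise was 1.92 (SE 0.34, limma adjusted p 0.0022), and here D0 replicate 4 was the array farthest from the adult values. AK138758 rose by 1.89 (SE 0.37, limma adjusted p 0.00393), from a D0 range of −1.64 to −0.12 to a D65 range of 0.85 to 1.86. Over the 43 rises of probes detected on every array, the median was 2.77-fold, and 6 were at least 4-fold.

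Lower in adult muscle, the DDBJ tag BY552761_P1 changed most among the probes detected on all arrays. It stood at 2.42, 2.45, 2.60 and 3.06 at D0 and at −1.71, −1.42, −1.99 and −1.62 at D65. The difference was −4.32 (SE 0.23, limma adjusted p 1.84e-06). The 4 arrays of each age lay close together, with a gap of several log2 units between the ages.

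Next came a pair of AK cDNAs with almost the same values. AK084660 stood at 3.25, 4.02, 3.91 and 3.74 at D0 and at 0.01, −0.43, −0.63 and −0.67 at D65, a difference of −4.16 (SE 0.25, 17.9-fold, limma adjusted p 3.38e-06). AK155224 stood at 3.11, 3.90, 3.80 and 3.60 at D0 and at 0.14, −0.50, −0.64 and −0.74 at D65, a difference of −4.04 (SE 0.27, 16.4-fold, limma adjusted p 6.01e-06). On no array did the levels of this pair differ by more than 0.14. The likeness was noticed after the values were seen, and whether both probes read the same RNA was not tested, so they may not be independent.

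The other named falls were between −2.24 and −3.24. CJ243031_P1 fell by 3.24 on the log2 scale (SE 0.43), from 0.64 to 2.59 at D0 down to −2.34 to −1.27 at D65. AK029714_P1 fell by 2.82 (SE 0.30), from 0.52 to 1.66 down to −2.03 to −1.56. In both, D0 replicates 3 and 4 lay above D0 replicates 1 and 2. Replicates 1 to 4 stood at 0.76, 0.64, 1.60 and 2.59 for CJ243031_P1 and at 0.52, 0.56, 1.66 and 1.47 for AK029714_P1.

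The tag BX523225_P1 fell by 2.71 (SE 0.37), and BY765531_P1 fell by 2.49 (SE 0.33). BX523225_P1 ranged from −0.04 to 1.60 at D0 and from −2.64 to −1.54 at D65. BY765531_P1 ranged from 0.28 to 0.94 at D0 and from −2.89 to −1.34 at D65. The tag CO432948 fell by 2.41 (SE 0.43), and the cDNA AK171993 fell by 2.24 (SE 0.26). All of them had separate ages, with the lowest D0 value of CO432948, 1.04, on replicate 4.

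AF416735_P1 fell by 2.32 (SE 0.45, limma adjusted p 0.0036), with levels of 2.91, 3.23, 3.07 and 1.12 at D0 and −0.16, 0.03, 0.77 and 0.40 at D65. D0 replicate 4 lay near the adult values and the other 3 newborn arrays far above them. Over the 44 falls of probes detected on every array, the median was 3.07-fold and 14 were at least 4-fold. The 20 named rises and falls were picked for their size in these same data, which favours their staying called. They stayed called under each of the 17 alternatives, but not all kept their size. Across the alternatives the difference ran from 2.13 to 3.44 for BG794789_P1 and from −4.41 to −3.13 for BY552761_P1. It ran from −2.92 to −1.58 for BX523225_P1, and less widely, from −4.32 to −3.54, for AK084660.

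**Figure D5:**
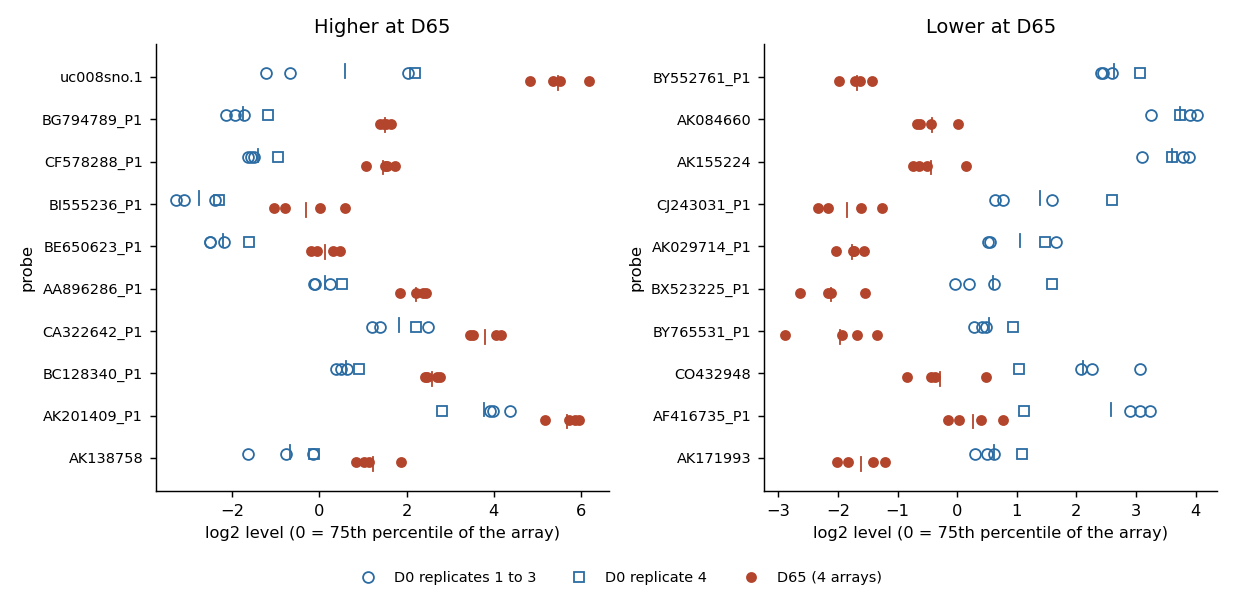
Log2 level (x axis, 0 = 75th percentile of the array) on each array for the 10 probes with the largest rises (left) and the 10 with the largest falls (right), open symbols for D0, with a square for replicate 4, filled points for D65 and short lines for the mean of each age. The ages do not overlap in any of the 20, and the square of AF416735_P1, at 1.12, lies nearer to the D65 points than to the other D0 points.

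Some probes were detected in one age alone. Well above background on all 4 D0 arrays and on no D65 array were 16 of the 1341 probes, beside 1288 of all 59709. The reverse held for 1 probe, AK040631_P1, beside 51 on the whole array. For such a probe the dim age gives only a bound, taken per array as the higher of the probe's own level and the lowest level of any probe well above background. Among those called, 12 could be given a bound. They passed the filter through their bright age alone, and their adjusted p rests in part on values not well above background, so it is given only beside the bound.

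The widest was AK082188_P1, a newborn cDNA. Its level was −0.27, −0.39, −0.19 and −0.17 at D0, and −4.89, −5.16, −5.10 and −5.32, not well above background, at D65. It was at least 6.90-fold higher at D0 (limma adjusted p 3.16e-07). Its D0 values lay close together.

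The other bounds were small. CA532251_P1 was at least 2.57-fold, BI180507_P1 at least 2.43-fold and AK171173 at least 2.36-fold higher at D0, with limma adjusted p of 0.000409, 0.00216 and 0.015. AK040631_P1 was at least 2.01-fold higher at D65 (limma adjusted p 0.000186), with measured levels of −2.29, −2.77, −3.16 and −3.02 there and −6.28, −6.29, −4.99 and −5.38, not well above background, at D0. These 4 lost their calls under both normexp background corrections. All remaining bounds were of probes higher at D0, from 1.00-fold for CV562937_P1 and 1.06-fold for AV295416 to 2.16-fold for AK015763_P1. Those probes count among the 59 falls by their measured differences, although the bounds alone allow almost no change for the smallest of them.

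Of the 5 brightest cDNA and tag probes, 1 was called. AV131371_P1 had a mean level of 10.78 over the 8 arrays and a difference of 0.68 (limma adjusted p 0.0672), which did not pass. The UCSC identifiers uc009vgv.1 and uc009vfa.1 followed at 10.54 and 10.47, with differences of 0.77 and 0.82 (limma adjusted p 0.0254 and 0.0256). BY652007_P1, at 10.40, had a difference of 0.77 (limma adjusted p 0.0316). These 3 passed the adjusted p but not the minimum difference of 1.

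The called one was AK215547_P1, the fifth brightest. It stood at 9.36, 9.29, 9.70 and 9.13 at D0 and at 10.24, 10.75, 10.26 and 10.49 at D65, a rise of 1.07 (SE 0.22, limma adjusted p 0.00473), barely past the minimum. It was not called under quantile normalization, either normexp correction, the deposited values, or without D0 replicate 4 or D65 replicate 2. BY652007_P1 and uc009vfa.1 had levels within 0.11 of each other on every array, another pair noticed after the values were seen.

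Several UCSC identifiers with neighbouring numbers were named after their values were seen. Among those beginning uc009sh, uc009she.1 fell by 1.35 (adjusted p 0.00395) and uc009shg.1 fell by 1.01 (adjusted p 0.019). The identifier uc009shf.1 stood at 1.26, 1.34, 0.43 and −1.62 at D0 and ranged from −2.53 to −1.47 at D65. It fell by 2.43 (SE 0.59, adjusted p 0.0114), although D0 replicate 4 lay within the adult values, so the ages overlapped. Of the 17 alternatives, 7 lost the call of uc009shg.1, among them those without D0 replicate 4, D65 replicate 2 or D65 replicate 3. Both normexp corrections lost that of uc009she.1.

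The others of that series were not called. The difference was −0.57 for uc009shi.1 (adjusted p 0.085), 0.05 for uc009shj.1 (adjusted p 0.882) and 0.24 for uc009sho.1 (adjusted p 0.503). With neighbouring numbers too, uc008ahj.1 fell by 1.45 (adjusted p 0.00374) and uc008ahk.1 fell by 1.30 (adjusted p 0.00672). Also called lower were uc007prv.1 at −1.54 (adjusted p 0.0022), uc008dxc.1 at −1.19 (adjusted p 0.0233) and uc009oan.1 at −1.12 (adjusted p 0.0158), all from the same limma fit. Both normexp corrections lost the calls of uc008ahk.1 and uc007prv.1, as they did that of uc009oan.1. The call of uc009oan.1 was also lost without D0 replicate 3 or D65 replicate 3. That of uc008dxc.1 was lost under normexp with quantile normalization and without D0 replicate 1, D0 replicate 2, D65 replicate 3 or D65 replicate 4. The identifier uc008ogl.1, at −0.94, passed the adjusted p (0.0245) and not the minimum. A wide spread left uc008ork.1 uncalled at −1.43 (adjusted p 0.0748), with D0 levels of 2.96, 2.67, 2.72 and 1.01 and D65 levels of −0.56, 1.09, 1.33 and 1.76.

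D0 replicate 4 bore on the rises more than on the falls. Among the 50 probes that rose, it was the D0 array nearest to the D65 mean for 33, against 1, 5 and 11 for replicates 1 to 3. Among the 59 that fell, it was nearest for 11, against 23, 8 and 17. Without it, 78 probes were called higher, 47 of them shared with the 50, and 65 lower, 56 of them shared with the 59. The whole array moved too, from 3344 higher and 4395 lower to 4323 and 4920. Of the 50 rises, 35 were called whichever of the 8 arrays was left out, and of the 59 falls, 51 were, including 19 of the 21 AK falls and 5 of the 8 UCSC falls. Under both normexp corrections 19 of the 50 and 35 of the 59 were still called, among them 16 of the 21 AK falls and 2 of the 8 UCSC falls.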

How the data were processed

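Each of the 8 samples (4 per age) had 1 single-colour array. Per the file headers, the scanner software was Agilent Feature Extraction (version 11.0.1.1) and the probe grid follows mm9. It subtracted the background and detrended the intensity of each spot in the deposited files, and set flags of 0 or 1 (other values). A table of normalized intensity that the authors deposited holds 14529 probes. How it was normalized is not given in the sources used here.

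Levels were log2 of processed signal minus each array's 75th percentile. Control and negative probes and outlier spots were left out, which left 7 of the probes described with a missing value (4 of them kept). No spot was saturated. D65 was set against D0 by lmFit and eBayes of limma (version 3.58.1, R 4.3.3) on all 8 arrays, with Benjamini-Hochberg adjustment over 34948 kept probes. The fit was tested on simulated data. The number of arrays limits the precision.

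Named were the 10 largest rises and falls called, detected on all 8 arrays and without overlap between ages, up to 4 bounds each way and the 5 brightest. The UCSC identifiers other than uc008sno.1, uc009vgv.1 and uc009vfa.1 were added after their values were seen, and a list of accession prefixes grouped the tags. The probes and lists were chosen with earlier results of these data known. Sequences and positions were not used. Alternatives changed the background correction (normexp, offset 50), scaling, filter, arrays, replicate block, detection flag and call rule, or took the deposited values. Undoing the multiplicative detrending was added after seeing the data.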

Additional observations from a re-analysis of the deposited data

Results flagged for a closer look

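Of 106 groups of 4 values tested for an array lying apart by Dixon's criterion, 6 had one. Chance gives about 1 in 20, so this number is near the chance share. In 5 of the 6 the array was D0 replicate 4. Its level of AF416735_P1 was 1.12, against 2.91 to 3.23 on the other D0 arrays, and its level of uc008ork.1 was 1.01, against 2.67 to 2.96. For the bright pair it lay above the others, at 10.62 for uc009vfa.1 against 9.83 to 9.94 and at 10.56 for BY652007_P1 against 9.80 to 9.87. The levels of this pair were within 0.11 of each other on every array, so these flags may not be independent. The median level of all kept cDNA and tag probes on that array was −0.67, against −1.13 to −1.11. In the remaining group, D65 replicate 1 had a level of −4.13 for AK171173, not well above background, whereas the other adult arrays had −3.26 to −3.10. The brightness of D0 replicate 4, 136 intensity units, was also lower than that of the other newborn arrays, and its part in these values was not tested.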

How the results depend on the processing

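Of the cDNA and tag probes, 24 were higher at D65 under normexp with the 75th percentile and 22 under normexp with quantile normalization, against 50, and 37 were lower under the latter, against 59. Over the whole array, higher calls went from 3344 to 1644 and 1917 under these settings, and lower calls from 4395 to 2831 and 2324. With no minimum change 85 of the cDNA and tag probes were higher. Their median difference without a filter was 0.36, beside 0.21 for all probes. AK cDNAs numbered 2 higher under each normexp setting, and their median was 0.14 without a filter. For UCSC identifiers the median was 0.017 under normexp with the 75th percentile, 2 were lower under normexp with quantile normalization, and 3 were higher with no minimum change. Other accessions had 21 and 19 higher under the normexp settings, 73 with no minimum change, 18 lower under normexp with quantile normalization, and a median of 0.41 without a filter. The cause of these moves was not tested.

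Leaving out each array in turn gave 42 to 78 higher, 56 to 65 lower and a median of 0.09 to 0.24. For AK cDNAs the ranges were 5 to 8, 19 to 21 and −0.17 to 0.01, for UCSC identifiers 1 to 2, 6 to 10 and −0.54 to −0.29, and for other accessions 36 to 68, 29 to 35 and 0.13 to 0.27. Each highest count of rises came without D0 replicate 4 (for AK, also without D65 replicate 3). Without it UCSC rises numbered 2.

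Rises made up 45.9% of the calls. This share was 34.8% under normexp with the 75th percentile, 53.7% with scaling on probes detected on all 8 arrays, 54.5% without D0 replicate 4, 51.4% without a filter and 51.1% on the deposited values. Over the whole array, 9.57% of probes were higher and 12.6% lower. These array shares were 4.70% and 8.10% under normexp with the 75th percentile and 12.0% and 11.1% with that scaling. They were 12.4% and 14.1% without D0 replicate 4, 6.46% and 7.64% without a filter, and 11.2% and 7.57% on the deposited values. Under normexp with the 75th percentile, rises among the calls of other accessions went from 58.9% to 48.8%, and of AK cDNAs from 22.2% to 10.5%. Scaling on probes detected on all 8 arrays moved the median of all kept probes by 0.12, and normexp with the 75th percentile by 0.13. Relative to all probes, the AK median was −0.21, and −0.23 to −0.05 under the alternatives, and the UCSC median was −0.46, and −0.64 to −0.18. The median of all cDNA and tag probes was 0.06 above that of all probes, and −0.01 to 0.15 under the alternatives.

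The labels do not say that equal replicate numbers pair samples, and the correlations of their deviations were −0.12, 0.24, 0.28 and −0.13. With the replicate block 52 were higher and 60 lower. Of 721 alternative values for the 43 named probes, 677 stayed on the same side of the call, 36 lost it, 8 gained it and 0 reversed. Of the 44 changes, 9 losses and 2 gains came under normexp with the 75th percentile and 11 losses under normexp with quantile normalization. By the scanner's positive-and-significant flag, the mean detected share was 78.1% at D0 and 71.1% at D65, against 54.9% and 46.8%. Levels near background carry only bounds, as for the 12 called probes with a bound.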
